A study of Mus musculus with 22 samples.

Results

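The loss of glucagon in the liver of mice that received no infusion was examined across all genes, as the difference between the 3 uninfused libraries labelled Gcg KO (written Gcg-/- here, libraries 4, 5 and 6) and the 3 uninfused libraries labelled WT (wild type, libraries 1, 2 and 3). The members are the 24475 genes of the deposited table in these 6 of 22 liver libraries of polyA RNA. Of these genes, 11590 had a mean of at least 0.5 RPKM (a read count divided by transcript length and by the mapped reads of its library) over the 22 libraries and were tested. The other 16 libraries form 4 groups of 4, namely WT and Gcg-/- mice that received glucagon at 30 or 150 µg/d, and serve here for the spread between libraries and for the question whether the genotype difference was the same under infusion. The labels give no strain, sex, age or feeding state, and they do not say how the Gcg allele was made or that libraries came from separate animals. The p-values therefore measure the spread between these libraries, which may be technical.

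Glucagon is the hormone that pancreatic alpha cells release when blood glucose is low or amino acids are high. On hepatocytes it binds the receptor Gcgr, which raises cyclic AMP and activates protein kinase A, and this pathway is known to increase gluconeogenesis, glycogen breakdown and the uptake and breakdown of amino acids. Gcg also encodes the glucagon-like peptides, so a knockout removes the source of all of these peptides together. Liver lobules are zoned: hepatocytes near the portal vein are known for urea and glucose production, and those near the central vein for glutamine synthesis and drug metabolism.

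Gcg was listed at 0 RPKM in all 6 libraries, WT included, so its level in liver does not check the genotype labels. Its receptor Gcgr stood at 93.9, 86.4 and 89.1 RPKM in the WT libraries and at 70.3, 89.4 and 89.2 RPKM in the Gcg-/- libraries. The groups overlapped, and Gcgr differed by -0.12 ± 0.11 (log2 fold change ± standard error, adjusted p = 0.622, limma). The tissue label was checked on hepatocyte genes: Alb (albumin) ranged from 24096 to 53681 RPKM, Ttr (transthyretin) from 5807 to 6967 RPKM and the hepatocyte regulator Hnf4a from 110.3 to 145 RPKM. Of 11 pancreas and adipose markers, Ins1, Ins2, Prss1, Cpa1, Pnlip and Lep were at 0 in all 6 libraries, and Amy2b, Adipoq and Retn were at or below 0.288 RPKM. The elastase Cela1 stood at 10.9, 10.1 and 14.2 RPKM in WT and 3.01, 10.1 and 11.8 RPKM in Gcg-/-, lowest in library 4, and the adipocyte marker Cfd at 10.3 RPKM in library 5 and at no more than 0.598 RPKM in the others.

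Library 4, labelled Gcg-/-, stood apart from the others. On the scale log2(RPKM + 1), the mean of 19 liver genes with male-biased expression was 4.35 in library 4, against 7.64 and 8.27 in the other Gcg-/- libraries and 7.82 to 8.38 in WT. The median log2 fold change of the 19 was -1.08 with library 4 and 0.22 without it. Of these 19, 3 were below WT in every Gcg-/- library, beside 11.6% of all genes tested. Among these 3, Elovl3 stood at 101, 56.5 and 72.2 RPKM in WT and 3.31, 8.04 and 21.2 RPKM in Gcg-/-. Cyp4a12b stood at 63.6, 60.9 and 57.5 RPKM in WT and 2.13, 24.2 and 34.2 RPKM in Gcg-/-. Neither passed the test (limma, adjusted p = 0.104 and 0.0662). The mean of 14 female-biased genes was 4.64 in library 4 and 1.02 to 1.54 in the other 5 libraries. The female-biased cytochrome Cyp2b9 stood at 111 RPKM there and at no more than 1.61 RPKM elsewhere, and the mean of 16 proliferation genes was 2.75 against 1.36 to 1.59. Y-linked Ddx3y ranged from 9.22 to 14.3 RPKM and Kdm5d from 3.18 to 3.55 RPKM over all 6 libraries, and X-linked Xist, the RNA of the inactive X chromosome, did not exceed 0.0294 RPKM in any, so library 4 carried Y-linked RNA like the others. Spearman's rho of library 4 with libraries 5 and 6 was 0.949 to 0.959 across genes, and that of libraries 5 and 6 was 0.979. Depth estimated from the values was 14.2 to 17.7 M reads in WT and 11.5 to 14 M reads in Gcg-/-, so WT libraries were on average deeper. Values without library 4 are given beside part of the results. All genes that passed the test without it are listed below, and every other gene said below to rise or fall did not pass without it. The part of the depth difference in these results was not tested.

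**Figure D1:**
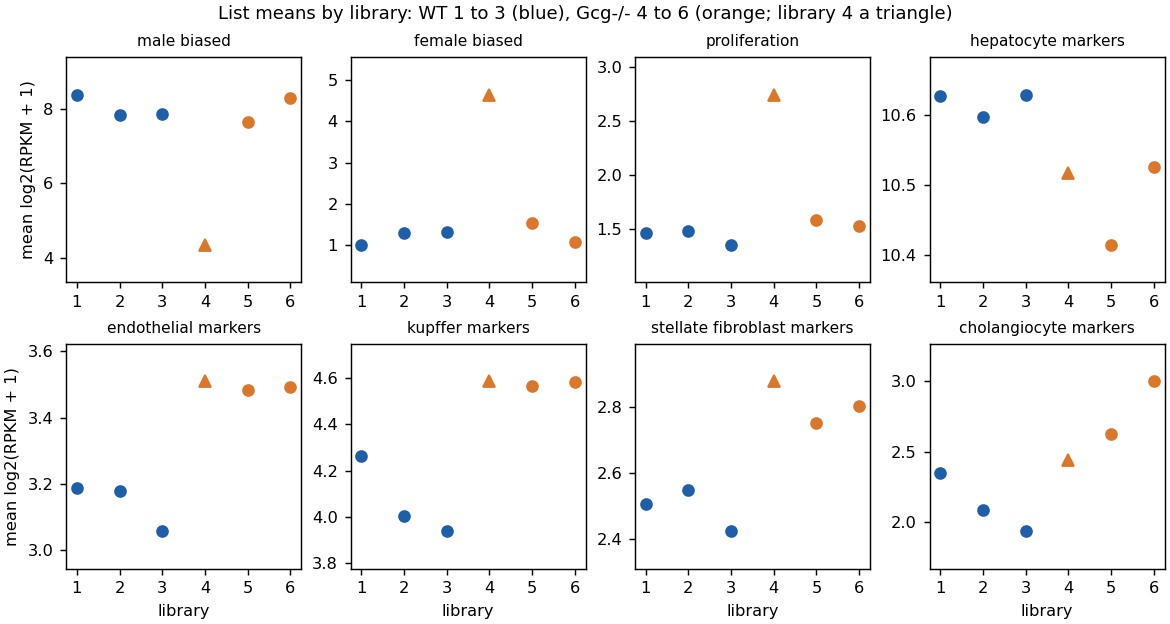
Mean of log2(RPKM + 1) over the tested members of 8 gene lists (y axis, a different range in each panel) for each uninfused library (x axis, 1 to 6). Circles and triangles are single libraries, WT in blue and Gcg-/- in orange, with library 4 as a triangle. Library 4 departs from all others on the male-biased, female-biased and proliferation lists. Endothelial, Kupffer and stellate means are higher, and the hepatocyte mean lower, in all 3 Gcg-/- libraries than in all 3 WT libraries. The hepatocyte list includes Tat, whose log2 fold change of -1.42 pulls that mean down.

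In Gcg-/- liver, 92 genes were higher and 87 lower than in WT at an adjusted p under 0.05 (limma, Benjamini-Hochberg over 11590 genes), which is 0.794 and 0.751% of the genes tested and 1.54% together. These are the calls referred to below, and "rose" and "fell" are used for called genes alone. The groups did not overlap, every Gcg-/- library lying beyond every WT library, for 178 of the 179 called genes, Fn3k being the exception, while over all genes tested 13.1% were higher and 11.6% lower without overlap. The median log2 fold change was 0.57 among the genes that rose and -0.80 among those that fell, and 49 called genes (21 higher, 28 lower) changed by at least 1 on the log2 scale. Without library 4, 16 genes were called: Aim1l, Dab2, Ebp, Galc, Gls2, Gm12718, Inhba, Lhpp, Lhx6, Nnmt, Nrp2, Oat, Robo1, Sepn1, Slc25a48 and Zap70, of which 15 were among the 179. Leaving out libraries 1, 2, 3, 5 and 6 in turn left 37, 10, 9, 83 and 294 calls. Only Ebp, Nrp2, Oat, Robo1, Zap70 and Slc25a48 were called in all 6 fits that left out 1 library, so for every other gene said below to rise or fall, leaving out at least 1 library ended the call.

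Enzymes that break down amino acids were lower in Gcg-/- liver. Over 9 lists of such enzymes, sorted by amino acid, 80 genes were tested, of which 12 (15%) fell and 0 rose. Of the 80, 73 had a fold change below 0, with a median of -0.33 against 0.01 over all genes tested. Without overlap, 44 of the 80 were lower and 2 higher. Without library 4, Oat and Gls2 were the 2 still called, and the median was -0.33.

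Ornithine aminotransferase, Oat, moves an amino group from ornithine to make glutamate semialdehyde and is known as a pericentral gene (chromosome 7, 132557475 to 132576398, GRCm38). It stood at 555.5, 752.5 and 722 RPKM in the WT libraries and at 52.1, 71.9 and 80.6 RPKM in the Gcg-/- libraries. All 3 Gcg-/- libraries were far below all 3 WT libraries, and the means of 677 ± 106 and 68.2 ± 14.6 RPKM (SD, n = 3 each) differ 9.92-fold, the largest log2 fall among called genes (-3.3 ± 0.42, adjusted p = 0.000847). Without library 4 the log2 fold change was -3.12 (adjusted p = 0.0126). The other 4 tested genes of ornithine and proline breakdown were not called.

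Sds, serine dehydratase, turns serine into pyruvate and ammonia and is a textbook target of glucagon in periportal liver (chromosome 5, 120476547 to 120483932). Its levels were 125, 140.4 and 128 RPKM in WT and 33.7, 11.9 and 24.9 RPKM in Gcg-/-. The WT libraries lay close together and the Gcg-/- libraries spread nearly 3-fold, all below WT (-2.54 ± 0.62, adjusted p = 0.0439; 0.102 without library 4). Agxt2, a mitochondrial aminotransferase for glyoxylate and alanine, fell from 70.2, 74.9 and 73.2 to 47.4, 51.2 and 49.1 RPKM (-0.55 ± 0.13, adjusted p = 0.0401). Of the other 10 genes of serine, threonine and glycine breakdown, Sdsl (-0.91 ± 0.27, adjusted p = 0.0904) and the glycine decarboxylase Gldc (-0.93 ± 0.30, adjusted p = 0.121) did not pass the test, although neither overlapped.

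Gls2, the liver glutaminase that releases ammonia from glutamine in periportal cells (chromosome 10, 128194635 to 128210004), stood at 155, 157 and 179.9 RPKM in WT and at 44.3, 20.7 and 30.4 RPKM in Gcg-/-. The lowest WT library was more than 3 times the highest Gcg-/- library, which was library 4 (-2.39 ± 0.43, adjusted p = 0.0146; -2.66 and 0.0395 without library 4). Got1, the cytosolic aspartate aminotransferase, stood at 101, 113 and 103 RPKM in WT and 21.4, 9.93 and 12.5 RPKM in Gcg-/-. All Gcg-/- libraries were far below WT, and Got1 did not pass the test (-2.84 ± 0.80, adjusted p = 0.0786). The mitochondrial partner Got2 differed by 0.04 ± 0.11 (adjusted p = 0.90).

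**Figure D2:**
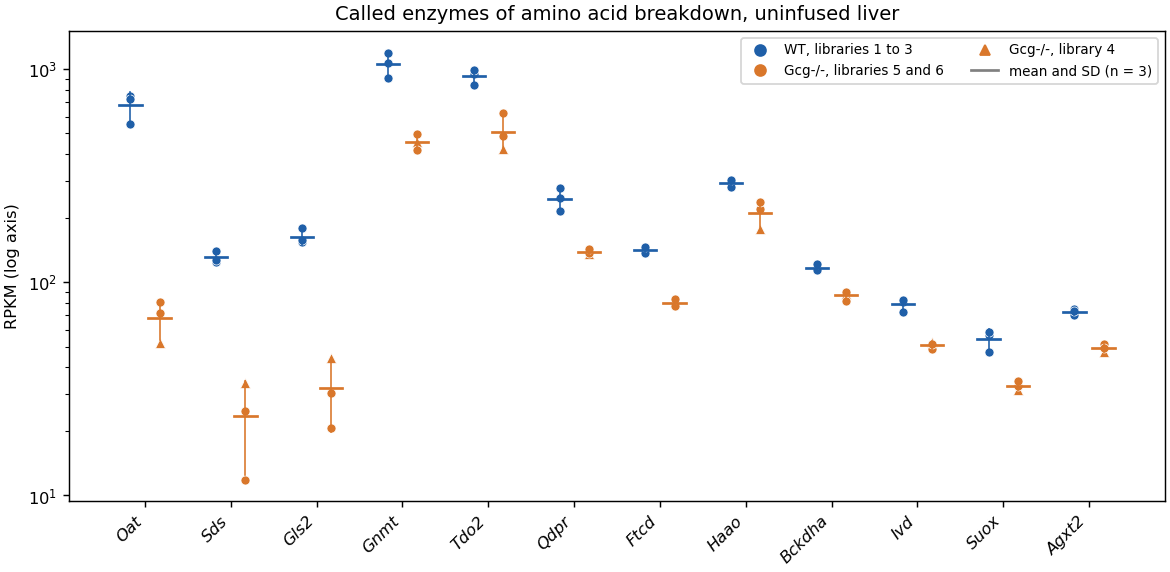
RPKM on a log axis (y) of the 12 called enzymes of amino acid breakdown (x) in the 6 uninfused libraries. Points are single libraries, WT in blue and Gcg-/- in orange with library 4 as a triangle, and bars are the mean and SD (n = 3); in none of the 12 genes do the groups overlap, and the gap is widest for Oat, Sds and Gls2.

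Of 16 genes for the aromatic amino acids 3 fell. Tdo2, tryptophan dioxygenase, which opens the ring of tryptophan, fell from 955, 848 and 990.5 to 421, 488 and 621 RPKM (-0.88 ± 0.20, adjusted p = 0.0319). Haao, a later step of the same kynurenine pathway, fell from 293, 281 and 304 to 179, 222 and 237 RPKM (-0.47 ± 0.11, adjusted p = 0.0351). In both genes library 4 was the lowest of the Gcg-/- libraries, and without it the adjusted p was 0.157 and 0.184. Qdpr, which regenerates the tetrahydrobiopterin cofactor of phenylalanine hydroxylase, stood at 217, 248 and 276 RPKM in WT and within a narrow range in Gcg-/-, at 136, 137 and 143 RPKM (-0.82 ± 0.17, adjusted p = 0.0238). Tat, tyrosine aminotransferase and a known cyclic AMP target, stood at 489, 638 and 551 RPKM in WT and 189, 175 and 269 RPKM in Gcg-/-. No Gcg-/- library reached WT, yet Tat did not pass the test (-1.42 ± 0.44, adjusted p = 0.102).

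Ftcd, which feeds the formimino group of histidine into the folate pool, fell with little spread in either group, from 143, 138 and 147 to 80.6, 77.1 and 83.7 RPKM (-0.82 ± 0.14, adjusted p = 0.0113; 0.0517 without library 4). Hal, the first enzyme of histidine breakdown, overlapped between the groups (-0.81 ± 0.32, adjusted p = 0.186). For methionine, the methyl-group consumer Gnmt fell from 911, 1072 and 1191 to 458, 418 and 497 RPKM (-1.2 ± 0.27, adjusted p = 0.0325). Suox, sulfite oxidase at the end of cysteine breakdown, fell from 47.3, 56.7 and 58.6 to 31.2, 32.7 and 34.5 RPKM (-0.70 ± 0.17, adjusted p = 0.0419). Cbs and Cth, which convert homocysteine to cysteine, differed by -1.28 ± 0.36 and -1.56 ± 0.49 without passing the test (adjusted p = 0.0786 and 0.111).

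Of 17 genes for branched-chain amino acids 2 fell: Bckdha, a subunit of the complex that commits these amino acids to breakdown, and Ivd, the next step for leucine. Bckdha went from 116, 114 and 121 to 88.4, 81.9 and 90.3 RPKM (-0.43 ± 0.09, adjusted p = 0.0283) and Ivd from 72.9, 80.6 and 83 to 52.6, 48.5 and 51.2 RPKM (-0.62 ± 0.14, adjusted p = 0.0314). The groups were separate but the falls were under 1 on the log2 scale. None of the 4 lysine genes was called: Aass, the first step, stood at 90.3, 101 and 108 RPKM in WT and 66.1, 57.3 and 57.7 RPKM in Gcg-/- (adjusted p = 0.129).

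None of the 8 urea cycle genes was called, with a median log2 fold change of -0.62, and 6 of the 8 were lower without overlap. Ass1, which joins citrulline and aspartate, stood at 1676, 1893 and 2138 RPKM in WT and at 791, 486 and 775 RPKM in Gcg-/-. The highest Gcg-/- library was below the lowest WT library by more than 2-fold, with an adjusted p of 0.0633 (-1.5 ± 0.40, limma). Nags, which makes the activator of the first step, stood at 20.1, 23.9 and 27.4 RPKM in WT and 13.3, 16.1 and 18.6 RPKM in Gcg-/- (-0.55 ± 0.15, adjusted p = 0.0694). The mitochondrial entry enzyme Cps1 differed by -0.69 ± 0.29 (adjusted p = 0.222), and Arg1, which releases urea, by -0.72 ± 0.22 (adjusted p = 0.101).

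Of 20 amino acid transporters tested, 1 rose and 1 fell, and both are carriers of large neutral amino acids. Slc43a1 fell from 3.96, 4.01 and 4.7 to 1.72, 1.54 and 1.58 RPKM (-1.0 ± 0.23, adjusted p = 0.0352). Its relative Slc43a2 rose from 2.18, 2.37 and 1.96 to 4.31, 2.86 and 3.62 RPKM (0.53 ± 0.10, adjusted p = 0.0218). The pair moved in opposite directions, each without overlap. The cationic amino acid carrier Slc7a2 (-1.52 ± 0.56, adjusted p = 0.158) and the glutamine carrier Slc38a3 (-0.66 ± 0.20, adjusted p = 0.0951) did not pass the test.

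Of 19 tested genes of the glucagon pathway itself, from the receptor through adenylyl cyclases and protein kinase A to CREB and its coactivators, none was called. Pde4b, a phosphodiesterase that breaks down cyclic AMP, stood at 5.73, 5.71 and 7.94 RPKM in WT and 2.45, 1.45 and 1.38 RPKM in Gcg-/- (-1.44 ± 0.43, adjusted p = 0.0908). The CREB coactivator Crtc2 stood at 11.5, 10.9 and 11 RPKM in WT and 8.59, 9.01 and 9.2 RPKM in Gcg-/- (-0.29 ± 0.11, adjusted p = 0.172). Both were lower in every Gcg-/- library.

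Genes for glucose output showed no call. All 17 gluconeogenesis genes were uncalled, with a median of -0.09. Pck1, the cytosolic step from oxaloacetate and the classical glucagon target, stood at 941, 923 and 559 RPKM in WT and at 699.8, 403 and 457 RPKM in Gcg-/-. WT library 3 lay below Gcg-/- library 4, so the groups overlapped (-0.64 ± 0.36, adjusted p = 0.375). G6pc, the final step, differed by 0.62 ± 0.70 (adjusted p = 0.697). Fbp1, the step that removes a phosphate from fructose bisphosphate, was lower without overlap, at 533, 602 and 558 RPKM in WT and 411, 322 and 373 RPKM in Gcg-/-, with an adjusted p of 0.186.

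On the glycogen side, 1 of 18 genes of glycolysis and glycogen rose. Gbe1, the enzyme that puts branches into glycogen, rose from 26.3, 39.7 and 33.6 to 60.1, 75.5 and 61.9 RPKM (0.98 ± 0.21, adjusted p = 0.0289; 0.0978 without library 4). The lowest Gcg-/- library was above the highest WT library by 1.5-fold. Ppp1r3b and Ppp1r3c, subunits that direct a phosphatase to glycogen, differed in opposite directions, by 1.12 ± 0.41 and -1.4 ± 0.41, without passing the test (adjusted p = 0.158 and 0.0904).

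Among 10 genes known to respond to carbohydrate, Txnip rose, and the median of the 10 was 0.81 (0.63 without library 4). Txnip binds thioredoxin and restrains glucose uptake (chromosome 3, 96557957 to 96561857). It stood at 26.6, 40.8 and 19.3 RPKM in WT and at 164, 165 and 93.9 RPKM in Gcg-/-, a 4.88-fold difference of the means with every Gcg-/- library at more than 2 times the highest WT library (2.27 ± 0.43, adjusted p = 0.0182; 0.0978 without library 4). Rgs16, a regulator of G-protein signalling known to follow carbohydrate feeding in liver, had the largest difference of the list, at 11.8, 28.3 and 7.13 RPKM in WT and 301, 221 and 142 RPKM in Gcg-/-. All Gcg-/- libraries were above all WT libraries, and Rgs16 was not called (3.87 ± 1.24, adjusted p = 0.116). Arrdc3, Thrsp and Fgf21 were also higher without overlap and not called (1.31 ± 0.50, 1.72 ± 0.66 and 1.15 ± 0.32; adjusted p = 0.172, 0.18 and 0.0674). The transcription factor of this response, Mlxipl, differed by -0.07 ± 0.15 (adjusted p = 0.852).

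Of 11 genes of nicotinamide and NAD metabolism 2 rose and 1 fell. Nnmt, which methylates nicotinamide and so removes it from the NAD salvage route, stood at 120.1, 106 and 103 RPKM in WT and at 1.52, 16.4 and 32.8 RPKM in Gcg-/- (chromosome 9, 48538002 to 48607655). The groups were far apart, and library 4 was the lowest of all (-3.27 ± 0.59, adjusted p = 0.0146; -2.18 and 0.0184 without library 4). Nampt, the rate-limiting enzyme of that salvage route, rose from 11.9, 13.4 and 13 to 37.5, 28.9 and 31.5 RPKM (1.28 ± 0.24, adjusted p = 0.0182). Nmrk1, which makes the same product from nicotinamide riboside, rose from 11.4, 12.6 and 11.5 to 28.6, 22 and 23.3 RPKM (0.99 ± 0.22, adjusted p = 0.0317). Both of these rose about 2-fold or more with tight groups, and without library 4 their adjusted p was 0.102 and 0.144. Sirt1 and Cd38, which consume NAD, were not called.

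**Figure D3:**
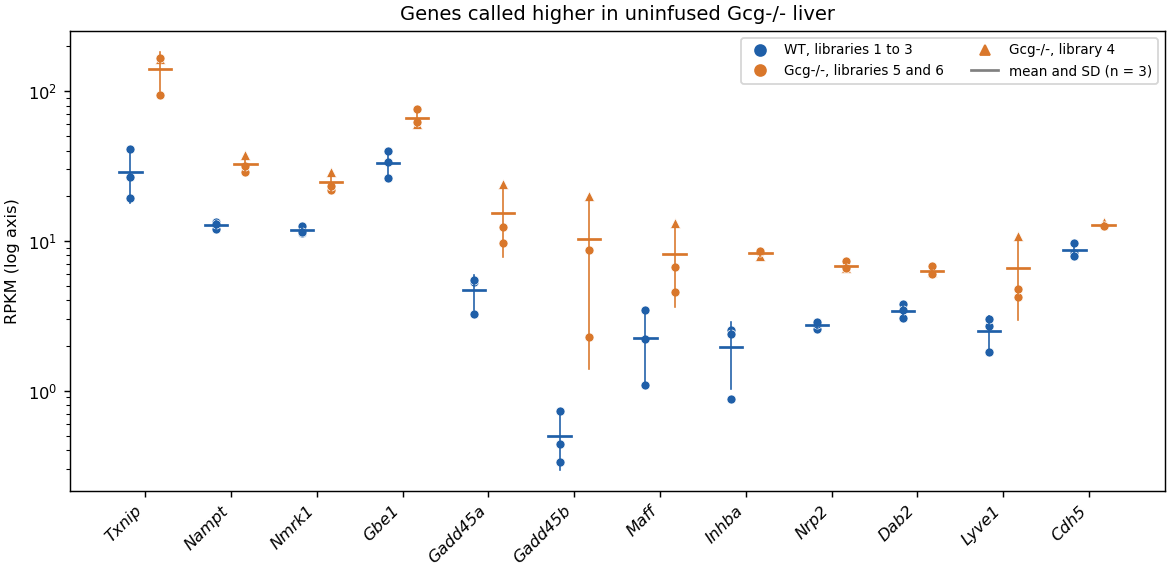
RPKM on a log axis (y) of 12 genes called higher in uninfused Gcg-/- liver (x). Points are single libraries, WT in blue and Gcg-/- in orange with library 4 as a triangle, and bars are the mean and SD (n = 3). Library 4 is the highest Gcg-/- library for Nampt, Nmrk1, Gadd45a, Gadd45b, Maff, Lyve1 and Cdh5 but not for Txnip, Gbe1, Inhba, Nrp2 or Dab2.

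Of 17 tested genes of the amino acid and stress response driven by ATF4, 1 fell and 1 rose. Asns, asparagine synthetase, stood at 14.2, 12 and 10.5 RPKM in WT and at 1.11, 1.25 and 2.84 RPKM in Gcg-/-, each below all WT libraries by more than 3-fold (-2.32 ± 0.49, adjusted p = 0.0293). Nupr1, a small stress-induced chromatin protein, stood at 0.356, 0.294 and 0.449 RPKM in WT and rose to 1.36, 0.793 and 1.5 RPKM (0.69 ± 0.15, adjusted p = 0.0306). At these low levels 1 read in a transcript of 1 kb is worth 0.056 to 0.087 RPKM. Atf4 itself (-0.19 ± 0.23, adjusted p = 0.71), Trib3 (-0.67 ± 0.31, adjusted p = 0.271) and Ddit3 (0.12 ± 0.24, adjusted p = 0.846) did not pass the test, and the 16 chaperone genes of the unfolded protein response had no call.

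Promoters were searched for the elements of these pathways because several called genes are known targets of cyclic AMP, ATF4, FOXO or carbohydrate signalling. The windows run from 250 bases before to 50 bases after a gene's start, from RefSeq (GRCm38.p6), and cover 9236 of the genes tested. The 4 stretches below are the 150 bases before the start of 4 called genes whose window holds a match, with the match in capitals: a cyclic AMP response element (CRE) in Zap70, a C/EBP-ATF element, the core bound by ATF4 with C/EBP factors, in Asns and Nupr1, and a FOXO core in Txnip. They lie at chr1:36761648-36761797 on the plus strand, chr6:7693210-7693359 and chr7:126625471-126625620 on the minus strand, and chr3:96557807-96557956 on the plus strand.
Zap70: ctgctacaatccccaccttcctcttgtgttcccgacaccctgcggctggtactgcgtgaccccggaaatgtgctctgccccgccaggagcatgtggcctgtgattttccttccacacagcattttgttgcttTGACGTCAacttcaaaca
Asns: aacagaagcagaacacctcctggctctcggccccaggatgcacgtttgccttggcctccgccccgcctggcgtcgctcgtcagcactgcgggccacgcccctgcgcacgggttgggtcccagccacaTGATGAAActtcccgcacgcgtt
Nupr1: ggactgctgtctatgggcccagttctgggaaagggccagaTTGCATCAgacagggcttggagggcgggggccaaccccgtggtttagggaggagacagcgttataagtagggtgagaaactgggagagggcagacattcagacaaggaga
Txnip: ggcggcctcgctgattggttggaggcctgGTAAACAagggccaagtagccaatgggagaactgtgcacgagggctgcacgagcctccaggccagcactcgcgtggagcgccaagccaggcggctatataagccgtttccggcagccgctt
The matches begin 18, 23, 110 and 121 bases before the start, counted on the gene's strand. These 4 genes were picked by hand and do not stand for all called genes with a match. A CRE was also in the windows of Meg3, which fell, and Maff, which rose, and a FOXO core in that of Car5a, which fell. The full CRE (TGACGTCA, both strands) was in 3.23% of the windows of 62 genes that fell, in 1.33% of those of 75 genes that rose and in 3.49% of all windows. Its half-site (TGACG, which every full CRE holds) was in 33.9%, 17.3% and 35.4% in the same order. The C/EBP-ATF element (TGATGNAA) was in 3.23%, 5.33% and 2.67%, the FOXO core (GTAAACA) in 3.23%, 4.0% and 3.37%, and the E-box (CACGTG), the core of a carbohydrate response element, in 14.5%, 13.3% and 12%. For the genes that fell, the share with a full CRE rests on 2 of 62 genes. Of the 87 genes that fell, several had no window, among them Sds, Gls2 and Nnmt. These shares therefore cannot say how often the genes that fell hold a CRE, and a part of the CRE in the falls was not tested. A match is a description of letters and not of a bound factor.

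Stress-responsive genes rose in part. Of 21 immediate early genes, Gadd45a, Gadd45b and Maff rose, and the median of the list was 0.60 (0.51 without library 4). By library, the list mean of log2(RPKM + 1) was 3.61, 2.75 and 2.05 in WT and 3.96, 3.94 and 2.76 in Gcg-/-, so the groups overlapped. Gadd45b, a growth arrest and DNA damage gene, was below 1 RPKM in WT, at 0.44, 0.727 and 0.333 RPKM, and stood at 19.9, 8.68 and 2.3 RPKM in Gcg-/- (2.55 ± 0.50, adjusted p = 0.0218). Gadd45a went from 5.33, 5.47 and 3.27 to 23.8, 12.3 and 9.71 RPKM (1.45 ± 0.35, adjusted p = 0.0422) and the small Maf protein Maff from 3.43, 2.2 and 1.1 to 13.1, 6.65 and 4.54 RPKM (1.45 ± 0.35, adjusted p = 0.0447). Library 4 was the highest in all 3 genes, and without it none was called (adjusted p = 0.103, 0.213 and 0.22). Fos, Egr1 and Atf3 overlapped between the groups and were not called.

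Inhba, the activin A subunit, rose among 11 genes of the activin, TGF-β and BMP family, from 2.55, 0.883 and 2.39 to 7.92, 8.39 and 8.61 RPKM. The Gcg-/- libraries were nearly equal, and all exceeded the highest WT library about 3-fold (1.72 ± 0.29, adjusted p = 0.0108; 1.75 and 0.047 without library 4). The subunit made mainly by hepatocytes, Inhbe, was in the other direction without a call (-0.98 ± 0.32, adjusted p = 0.118), and the antagonist Fst differed by -0.26 ± 0.35 (adjusted p = 0.745).

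Of 16 fatty acid synthesis and 22 cholesterol synthesis genes on the lists none was called, and of 29 genes of fatty acid oxidation and ketone production only Etfdh, which passes electrons from acyl-CoA dehydrogenases and from amino acid oxidation to the respiratory chain, fell. It went from 116, 114 and 109 to 83, 78.1 and 88 RPKM (-0.44 ± 0.11, adjusted p = 0.0401). Ebp, a sterol isomerase late in cholesterol synthesis that was not on the list, had one of the smallest p-values, at 136, 133 and 141 RPKM in WT and 71.2, 78.5 and 82.9 RPKM in Gcg-/-. The groups were tight and far apart (-0.81 ± 0.12, adjusted p = 0.00531; 0.0456 without library 4). Apoa4, an apolipoprotein known to rise with liver fat and fasting, rose to 303, 47.2 and 85.4 RPKM from 30.8, 25.4 and 23.2 RPKM (1.99 ± 0.44, adjusted p = 0.0306), highest in library 4: without it the log2 fold change was 1.24 (adjusted p = 0.115). Of 30 nuclear genes of the respiratory chain none was called and 27 had a fold change below 0, with a median of -0.14. The subunit Cox5b stood at 221, 162 and 231 RPKM in WT and 152, 127 and 161 RPKM in Gcg-/- (adjusted p = 0.121), and Atp5d at 159, 157 and 169 RPKM and 137, 123 and 139 RPKM (adjusted p = 0.174). No bile acid gene of 23 was called, Hsd3b7 of that pathway standing at 278, 263 and 279.9 RPKM in WT and 126, 179.8 and 185 RPKM in Gcg-/- (adjusted p = 0.10).

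In drug metabolism, 2 of 27 cytochrome and regulator genes rose and 2 of 25 conjugating enzymes fell. Nr1i2, the pregnane X receptor that senses foreign compounds, rose from 17.5, 19.2 and 19 to 31.4, 25.1 and 25 RPKM (0.52 ± 0.12, adjusted p = 0.0314), and Cyp2d10 from 356, 323 and 351 to 457, 447 and 435 RPKM (0.38 ± 0.08, adjusted p = 0.0238). The glutathione transferase Gstm2 fell from 46.5, 66.1 and 64.8 to 22.2, 26.5 and 26 RPKM (-1.2 ± 0.22, adjusted p = 0.0171). The glucuronosyltransferase Ugt2b1 fell from 272, 285 and 257 to 67.6, 136 and 169.8 RPKM, lowest in library 4 (-1.21 ± 0.29, adjusted p = 0.0424; 0.213 without library 4). Cyp2d10, Gstm2 and Ugt2b1 belong to families of near-identical genes whose shared reads the counting could split, so their values are uncertain. Over the 27 cytochrome genes the median was 0.52 with library 4 and 0.21 without it. Cyp2c40, which is female-biased, stood at 6.66, 4.72 and 5.8 RPKM in WT and 162, 34.1 and 29.6 RPKM in Gcg-/-. Its female-biased relative Cyp2c69 stood at 6.13, 7.01 and 4.88 RPKM in WT and 109.7, 20 and 11.4 RPKM in Gcg-/-. Both were highest in library 4 and above WT in libraries 5 and 6 too, with no call (adjusted p = 0.0964 and 0.104).

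**Figure D4:**
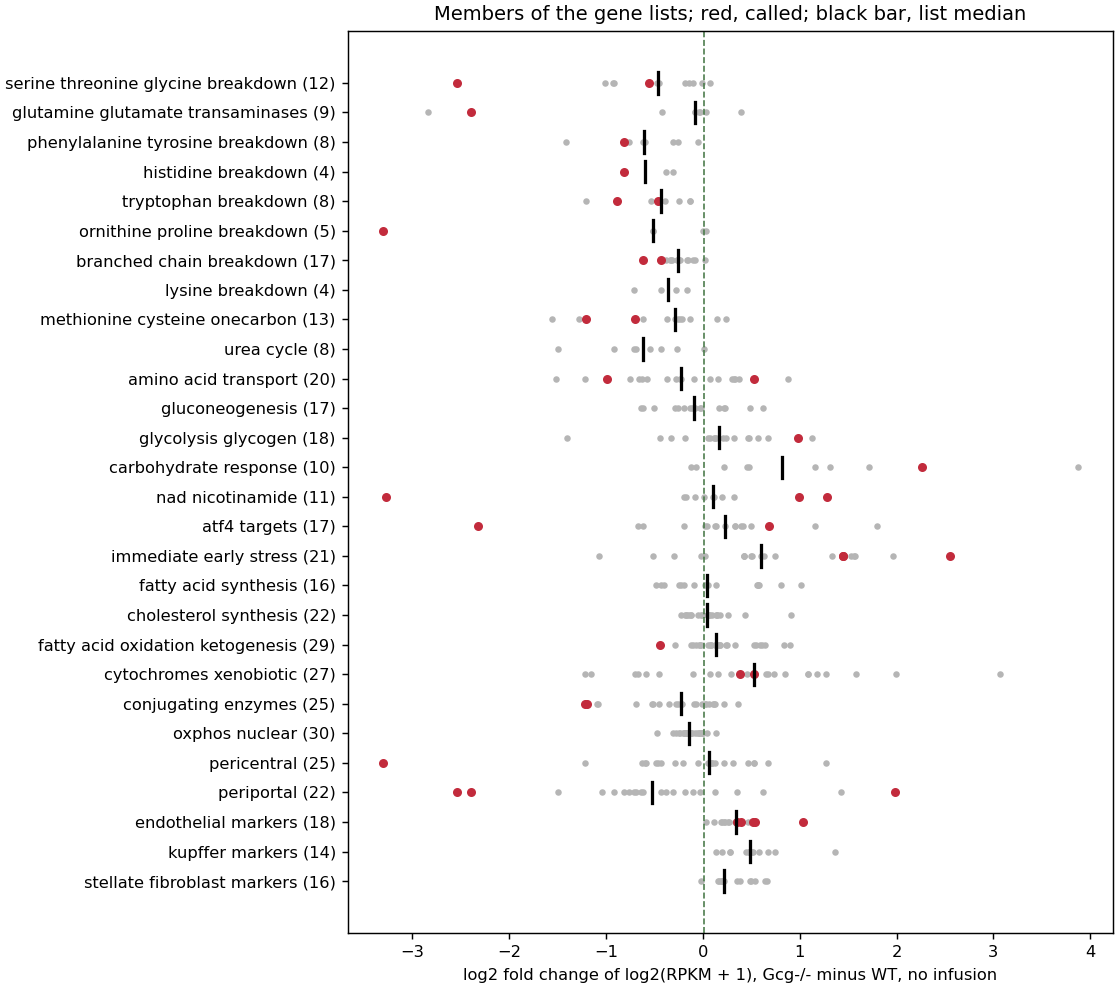
Log2 fold change, Gcg-/- minus WT on the scale log2(RPKM + 1) (x axis), of each tested member of 28 gene lists (y axis, number of tested members in brackets). Red points are called genes, grey points genes without a call, and black bars list medians; all amino acid lists have medians below 0, while members of the endothelial and Kupffer lists lie above 0.

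Of the landmarks of zonation, 3 fell and 1 rose. Of 25 pericentral genes Oat alone fell, and the median was 0.06. The glutamine synthetase Glul, restricted to the last cells around the central vein, stood at 436, 419 and 407 RPKM in WT and 394, 623 and 575 RPKM in Gcg-/-. Library 4 was below WT and libraries 5 and 6 above it, and Glul was not called (0.31 ± 0.25, adjusted p = 0.567). Cyp2e1 stood at 3789, 4529 and 4232 RPKM and 3748, 5651 and 3970.3 RPKM (0.07 ± 0.24, adjusted p = 0.914). The Wnt target Axin2 was at 1.64, 1.63 and 2.26 RPKM in WT and 1.64, 2.21 and 2.03 RPKM in Gcg-/- (0.06 ± 0.22, adjusted p = 0.917). The groups overlapped for all 3 of these genes. Of 22 periportal genes, Gls2 and Sds fell and Apoa4 rose, and the median was -0.53. Cyp2f2, a periportal cytochrome, stood at 885, 595 and 699 RPKM in WT and 658, 523 and 865 RPKM in Gcg-/- and overlapped (-0.10 ± 0.18, adjusted p = 0.819). Both Cyp2e1 and Cyp2f2 changed sign under other settings, so neither has a direction. In bulk liver fewer cells of a type and less RNA per cell cannot be told apart, for these genes and for the cell type markers below.

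Endothelial markers were higher as a group. All 18 tested had a fold change above 0, with a median of 0.34, 11 were higher without overlap, and 5 rose: Cdh5, Pecam1, Tek, Lyve1 and Stab2. Cdh5, the cadherin of endothelial junctions, rose from 9.64, 8.35 and 7.91 to 13.3, 12.5 and 12.5 RPKM (0.52 ± 0.11, adjusted p = 0.0301). Pecam1, a pan-endothelial adhesion molecule, rose from 5.77, 5.29 and 4.87 to 7.5, 6.95 and 7.39 RPKM (0.39 ± 0.09, adjusted p = 0.0306). Stab2 and Lyve1, scavenger and hyaluronan receptors of liver sinusoids, rose from 11.7, 10.8 and 10.1 to 17.9, 16.2 and 14.6 RPKM and from 2.69, 3.01 and 1.8 to 10.8, 4.22 and 4.79 RPKM (adjusted p = 0.0442 and 0.0441). Lyve1 in library 4 was more than 2 times any other library, and without library 4 its log2 fold change was 0.67. None of the 5 was called without library 4, while the median of the 18 was then 0.35. The summed level of the 19 markers in the table was 177 to 193 RPKM in WT and 232 to 237 RPKM in Gcg-/-.

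Markers of Kupffer cells, the resident macrophages, were also all higher, 14 of 14 with a median of 0.48 and 11 without overlap, and none was called. Their summed level was 289 to 365 RPKM in WT and 412 to 437 RPKM in Gcg-/-. Csf1r, the macrophage growth factor receptor, stood at 18.4, 14.6 and 13.7 RPKM in WT and 23.5, 25.6 and 26.6 RPKM in Gcg-/- (0.67 ± 0.21, adjusted p = 0.104). Of 16 stellate and fibroblast markers 15 were above 0, with a median of 0.21 and no call, and their sums were 157 to 170 RPKM in WT and 202 to 214 RPKM in Gcg-/-. Hepatocyte markers, 10 genes, had a median of 0.03, with sums of 46900 to 51200 RPKM in WT and 52500 to 79400 RPKM in Gcg-/-. The highest sum was that of library 4, where Alb was highest, and without Alb the sums were 21432 to 25567 RPKM in WT and 25751 to 26179 RPKM in Gcg-/-. The mean of these 10 markers on the scale log2(RPKM + 1) lay the other way, lower in every Gcg-/- library. Tat, described above with the aromatic amino acids, is among the 10 and differed by -1.42, which pulls this mean down. Of the 10, 5 had a fold change above 0 and 5 below, so the mean does not stand for a general drop of these markers. It was 10.63, 10.60 and 10.63 in WT and 10.52, 10.41 and 10.53 in Gcg-/-. Without overlap, 3 of the 10 were lower and 1 higher. Cholangiocyte markers summed to 21.8 to 39.5 RPKM in WT and 64.9 to 183 RPKM in Gcg-/-, and in Gcg-/- almost all of it was Spp1 (osteopontin). Spp1 stood at 30.6, 14.3 and 14.3 RPKM in WT and 58.4, 119.7 and 175 RPKM in Gcg-/- (adjusted p = 0.0626). Krt19 and Sox9, which define bile duct cells, differed by 0.12 ± 0.18 and -0.22 ± 0.19 (adjusted p = 0.786 and 0.608). Whether the cell make-up of the samples had a part in the called differences was not tested.

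Nrp2 and Dab2 are expressed in endothelial cells and macrophages among other cells, and both rose with very little spread. Nrp2, a co-receptor for semaphorins and VEGF (chromosome 1, 62703317 to 62818692), rose from 2.6, 2.78 and 2.87 to 6.59, 7.31 and 6.58 RPKM (1.06 ± 0.16, adjusted p = 0.00531; 0.0234 without library 4). Dab2, an adaptor of endocytosis, rose from 3.03, 3.81 and 3.44 to 6.15, 6.74 and 6.0 RPKM (0.72 ± 0.12, adjusted p = 0.0103; 0.047 without library 4). In both genes the Gcg-/- libraries lay within 1.2-fold of each other and every one was above 1.5 times the highest WT library.

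Zap70, a tyrosine kinase best known from T-cell receptor signalling, fell (chromosome 1, 36761798 to 36782821). It stood at 4.85, 6.58 and 5.18 RPKM in WT and 0.572, 1.69 and 0.637 RPKM in Gcg-/- (-1.77 ± 0.22, adjusted p = 0.000847; 0.0126 without library 4). Of 15 lymphocyte markers 4 reached the level for testing, Zap70 included, with a median of 0.18 and no other call. Cd79b and Cd4 differed by 0.33 ± 0.16 and 0.03 ± 0.24 (adjusted p = 0.289 and 0.97). The summed level of all 15 was 9.79 to 11.2 RPKM in WT and 6.52 to 9.43 RPKM in Gcg-/-. Without Zap70 it was 4.28 to 6.31 RPKM in WT and 5.88 to 8.55 RPKM in Gcg-/-, with overlap.

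Slc25a48, a mitochondrial carrier, fell from 6.03, 7.99 and 6.28 to 2.62, 2.7 and 2.17 RPKM (-1.15 ± 0.14, adjusted p = 0.000847; 0.0126 without library 4). Robo1, a receptor of Slit guidance cues, fell from 1.72, 3.31 and 2.32 to 0.732, 0.506 and 0.384 RPKM (-1.14 ± 0.17, adjusted p = 0.00531; 0.0157 without library 4). Lhpp, a histidine phosphatase, fell from 35.5, 46.6 and 46 to 10.2, 9.4 and 9.52 RPKM (-2.02 ± 0.35, adjusted p = 0.0113; 0.0473 without library 4). In these 3 genes the highest Gcg-/- library was below the lowest WT library.

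Several genes went from a few RPKM in WT to below 1 RPKM in every Gcg-/- library. Mmd2, a membrane protein related to adiponectin receptors, stood at 2.86, 3.98 and 2.09 RPKM in WT and at 0, 0.033 and 0.159 RPKM in Gcg-/-. Lrtm1, a leucine-rich repeat membrane protein, stood at 1.61, 4.45 and 2.94 RPKM in WT and 0.0583, 0.242 and 0.105 RPKM in Gcg-/-, and the imprinted long noncoding RNA Meg3 at 5.74, 2.9 and 2.23 RPKM in WT and 0.175, 0.289 and 0.928 RPKM in Gcg-/-. The antisense transcript Ctcflos was at 3.89, 3.62 and 2.32 RPKM in WT and 0.147, 0.449 and 0.664 RPKM in Gcg-/-, and whether counting used strand is not known. Sytl1, a synaptotagmin-like adaptor of secretory vesicles, was at 4.08, 3.99 and 3.83 RPKM in WT and 0.842, 0.295 and 0.933 RPKM in Gcg-/-, with the WT libraries nearly equal. The unnamed transcript Gm12718 was at 5.03, 5.24 and 6.0 RPKM in WT and 0, 0.0877 and 0.423 RPKM in Gcg-/-. These falls were between -2.47 and -1.58 on the log2(RPKM + 1) scale (adjusted p from 0.00755 to 0.0322), which understates the change of low genes, and Gm12718 was called also without library 4 (adjusted p = 0.047).

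Other genes rose from low levels. Cxcl13, a B-cell chemokine, rose from 1.15, 0.74 and 0.967 to 4.11, 3.42 and 3.38 RPKM and Fam131c from 1.37, 1.47 and 0.914 to 3.8, 4.27 and 4.45 RPKM, both with close Gcg-/- libraries. Wee1, the kinase that delays entry into mitosis and a known clock output, rose from 1.81, 3.77 and 3.51 to 13.8, 8.02 and 5.15 RPKM, highest in library 4. Aim1l, a crystallin-domain protein, went from 0.433, 0.40 and 0.369 to 2.04, 4.09 and 1.63 RPKM, and Sepn1, a selenoprotein of the endoplasmic reticulum, from 0.793, 0.642 and 0.591 to 1.58, 1.52 and 1.32 RPKM. The log2 fold changes of these 5 were 1.25, 1.21, 1.25, 1.3 and 0.56 in the same order (adjusted p = 0.0322, 0.0293, 0.0349, 0.0169 and 0.00755). Aim1l and Sepn1 were called also without library 4 (adjusted p = 0.0473 and 0.047). Of the clock genes, 17 tested, Bhlhe41, a repressor of the clock, fell from 3.14, 2.79 and 2.64 to 0.597, 0.787 and 1.8 RPKM (adjusted p = 0.0296), and the core repressors Per2 and Cry1 were not called. Of 23 interferon-induced genes Gbp6 alone fell, from 4.88, 5.02 and 4.74 to 3.06, 3.34 and 2.56 RPKM (adjusted p = 0.0489). Mocos, which attaches sulfur to the molybdenum cofactor that aldehyde oxidase needs, fell from 20.8, 22.2 and 22.2 to 13.4, 15.1 and 15.3 RPKM (adjusted p = 0.0103).

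Rnaset2a was called higher and its near-identical copy Rnaset2b lay in the other direction. Rnaset2a, a secreted ribonuclease, stood at 24.7, 23.7 and 13.2 RPKM in WT and 89.7, 77.8 and 81.7 RPKM in Gcg-/- (adjusted p = 0.0359). Rnaset2b stood at 111, 95 and 121 RPKM in WT and 24.8, 39.7 and 32.4 RPKM in Gcg-/- (-1.74 ± 0.53, adjusted p = 0.102). Rnaset2a was above Rnaset2b in each Gcg-/- library and below it in each WT library, so the division of shared reads between them is uncertain and the rise of Rnaset2a alone is not a measure of the pair. The beta-globin copy Hbb-bs was below 1e-05 RPKM in libraries 1 to 4 and at 15.8 and 9.5 RPKM in libraries 5 and 6, while Hbb-bt stood at 47.8, 28.7 and 81.1 RPKM in WT and 42.7, 214 and 46 RPKM in Gcg-/-, and these copies too share reads.

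Some large differences were not called. The metal-binding metallothionein Mt2 stood at 293, 145 and 103 RPKM in WT and 77.1, 23.6 and 1.38 RPKM in Gcg-/- (-3.31 ± 1.32, adjusted p = 0.194), and Mt1 at 410.1, 316 and 248 RPKM in WT and 429, 52.6 and 10.7 RPKM in Gcg-/- (adjusted p = 0.244). Gcg-/- library 6 was far below libraries 4 and 5 in both. Igfbp2, an IGF-binding protein made by hepatocytes, stood at 204, 125 and 189 RPKM in WT and 771, 282 and 218 RPKM in Gcg-/- (1.09 ± 0.39, adjusted p = 0.15), highest in library 4. Ccnd1, a cyclin that drives entry into the cell cycle, stood at 5.84, 4.45 and 5.1 RPKM and 55.9, 9.47 and 10.6 RPKM (adjusted p = 0.12), again highest in library 4. The copper carrier Cp, an acute phase protein, was higher in all Gcg-/- libraries at 633, 546 and 529 RPKM against 367, 332 and 292 RPKM without passing the test (0.78 ± 0.25, adjusted p = 0.117).

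The neighbourhood of the knocked-out gene showed no call. Of 106 genes that start within 10 Mb of Gcg, 51 were tested and none was called, with a median of 0.04. Over all genes tested 1.54% were called, a share at which few calls fall among 51 genes, so the lack of a call does not set this neighbourhood apart. Without overlap 10 of the 51 were higher and 4 lower, beside 13.1% and 11.6% of all genes tested. Rapgef4, an exchange factor activated directly by cyclic AMP, stood at 27, 40.5 and 31.9 RPKM in WT and 76.4, 60.5 and 58.8 RPKM in Gcg-/- (0.97 ± 0.24, adjusted p = 0.0515), and Itga6 at 0.379, 0.449 and 0.429 RPKM in WT and 1.09, 0.537 and 0.597 RPKM in Gcg-/- (adjusted p = 0.142). Both were higher in every Gcg-/- library without passing the test.

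Whether the uninfused genotype difference was the same under infusion was tested as an interaction. The genotype comparison called 38 genes (0.328%) at 30 µg/d and 3 genes (0.0259%) at 150 µg/d, between libraries that the uninfused comparison does not use, although all share 1 estimate of spread. Of the 179 genes called without infusion, 12 (6.7%) were also called at 30 µg/d, among them Oat, Zap70, Nrp2, Robo1, Asns, Meg3, Mmd2, Ctcflos and Bhlhe41, and 3 (1.68%) at 150 µg/d, namely Robo1, Zap70 and Mmd2. The difference between the uninfused genotype effect and that at 30 µg/d was called for 1 gene (0.00863%), Atxn1, and that at 150 µg/d for 0 genes (0.0%), where the smallest adjusted p was 0.107 in limma and 1187 genes had an unadjusted p under 0.05.

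Oat stood at 574 ± 105 RPKM in WT and 164 ± 39.7 RPKM in Gcg-/- at 30 µg/d, and at 801 ± 318 and 708 ± 311 RPKM at 150 µg/d (SD, n = 4 each). The genotype difference was -1.81 ± 0.37 at the lower dose and -0.23 ± 0.37 at the higher. The uninfused difference minus that under infusion was -1.49 ± 0.56 for 30 µg/d (adjusted p = 0.454) and -3.07 ± 0.56 for 150 µg/d (adjusted p = 0.108), neither of which passed the test. Slc25a48 and Ebp had genotype differences of -0.26 ± 0.13 and 0.08 ± 0.11 at 30 µg/d and -0.10 ± 0.13 and 0.11 ± 0.11 at 150 µg/d, with interactions that did not pass either (adjusted p = 0.173 and 0.157, then 0.108 and 0.108). Dab2, which rose without infusion, differed by -0.05 ± 0.10 and -0.10 ± 0.10 under the 2 doses (interaction adjusted p = 0.173 and 0.148). Oat, Slc25a48, Ebp and Dab2 were chosen among called genes for their small interaction p. That choice favours an uninfused difference larger than the infused ones, so their pattern does not stand for the called genes. For Mmd2 the genotype differences were -1.89 ± 0.29 and -1.97 ± 0.29 under the 2 doses and -1.88 ± 0.34 without infusion.

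**Figure D5:**
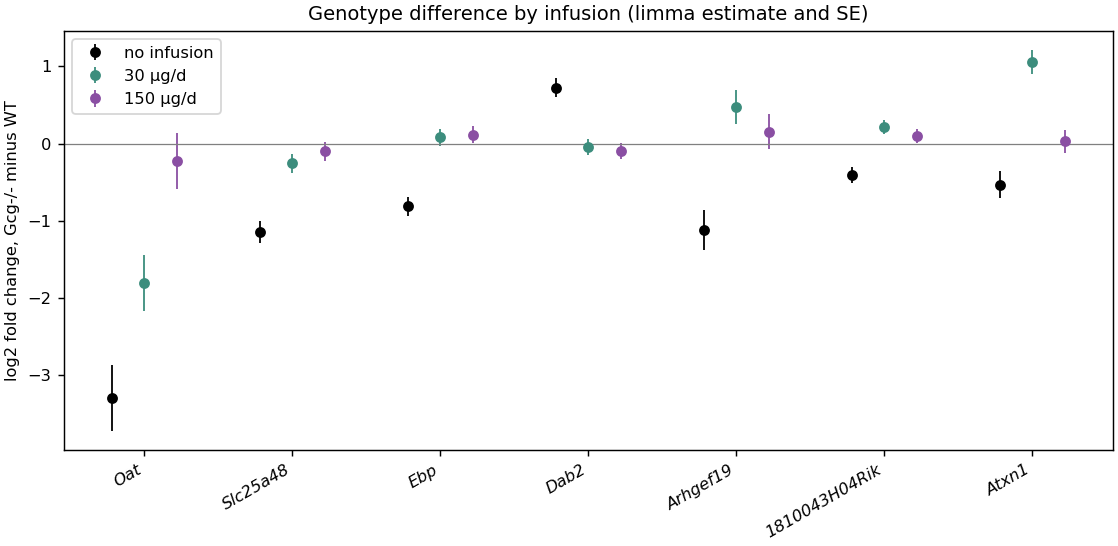
Genotype difference, Gcg-/- minus WT on the log2(RPKM + 1) scale with its standard error from limma (y axis), without infusion and at 30 and 150 µg/d of glucagon (colours) for 7 genes (x axis). The first 6 genes were chosen among called genes for the smallest interaction p, a choice that favours an uninfused difference farther from 0, and none of their interactions passed the test. Their uninfused difference lies farthest from 0, and Atxn1 lies below 0 without infusion and above 0 at 30 µg/d.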

How the data were processed

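RNA of flash-frozen liver was extracted with Trizol, purified with DNase treatment, selected for polyA and made into strand-specific libraries, per the labels' protocols. CASAVA 1.8.2, FastQC and the build GRCm38 are named per the submitters' processing notes. Which aligner, counter and gene models were used is not given in the sources used here. The use of strand and the division of reads shared by gene copies are therefore unknown. The authors deposited RPKM values, which are normalized to transcript length and library depth, with replicates unpooled.

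Genes with a mean of at least 0.5 RPKM over 22 libraries (11590 of 24475) were tested on log2(RPKM + 1) with limma 3.58.1 in R 4.3.3: 6 groups in 1 fit (16 residual degrees of freedom), a mean-variance trend, Benjamini-Hochberg adjustment over all genes tested, and calls at an adjusted p under 0.05. Fold changes are on that scale and understate low genes. The code was tested on simulated data. Depth was estimated from low values of 3984 genes with 1 transcript, of which 67.9 to 71.3% came out whole within 0.1 of a read in the uninfused libraries, too few for a count test. No 2 libraries were identical.

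The members and the 52 gene lists were chosen with earlier results of these data known. Named genes are the 12 strongest rises and 12 strongest falls of called genes that passed a log2 change of 1, at least 1 RPKM in the higher group, no overlap and a symbol, the 10 smallest adjusted p, called list members (up to 6 a list), up to 2 members with an unadjusted p under 0.05 of lists without a call, 11 fixed landmarks, called genes within 10 Mb of Gcg and, for each interaction, the 4 smallest adjusted p among called genes. Other list members, Rnaset2b and the globin copies were named after their values were seen. Other pseudocounts, filters, scalings, array weights, the uninfused groups alone and leaving out each library were tried.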

Additional observations from a re-analysis of the deposited data

Results flagged for a closer look

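Atxn1, a transcriptional regulator that is mutated in a spinocerebellar ataxia, was the 1 gene whose genotype difference without infusion differed from that at 30 µg/d by a test of the difference itself, -1.59 on the log2 scale (limma, adjusted p = 0.0167). It stood at 3.43, 4.24 and 2.81 RPKM in uninfused WT and 1.57, 2.36 and 2.37 RPKM in uninfused Gcg-/- libraries, a difference that was not itself called (-0.53 ± 0.18, adjusted p = 0.121). At 30 µg/d it stood at 1.61, 3.12, 2.14 and 2.21 RPKM in WT and at 5.33, 5.62, 5.04 and 7.07 RPKM in Gcg-/-, where all 4 Gcg-/- libraries were above all other libraries of the series. The interaction call was lost when libraries were left out in some fits, as given in the next part.

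Of 28 groups of 4 libraries (1 gene in 1 infused group each) tested for a library far from the others, 3 had one, and chance alone gives about 1 in 20 groups. Oat stood at 245.0 RPKM in library 19 (Gcg-/-, 150 µg/d), below the rest of its group. Arhgef19, a guanine nucleotide exchange factor, stood at 9.72 RPKM in library 12 (Gcg-/-, 30 µg/d). Atxn1 stood at 3.96 RPKM in library 20 (Gcg-/-, 150 µg/d), above the rest of its group.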

How the results depend on the processing

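The count of 179 genes called without infusion stayed within 1.5 times under 7 alternatives, from 124 with the uninfused groups alone (39 higher, 85 lower) to 244 with median-of-ratios scaling (118 higher, 126 lower). The genes were not all the same. Of the 179, only 59 stayed called with the uninfused groups alone, 110 with no filter, 132 with quantile normalization and 174 with median-of-ratios scaling. With the uninfused groups alone, Nnmt, Apoa4, Gadd45a, Gadd45b, Maff, Wee1 and Aim1l were among the genes not called (limma adjusted p from 0.0631 to 0.179). Quantile normalization gave 64 higher and 88 lower. Array weights, which give less weight to libraries far from their group, gave 945 calls (442 higher, 503 lower) that held all 179. Leaving out 1 library gave 9 to 294 calls, and of the 179 genes 36, 10, 9, 15, 67 and 145 remained without libraries 1 to 6. The cause was not tested; fewer libraries leave fewer degrees of freedom. The interaction at 30 µg/d had 1 call, 2 with no filter, 11 with array weights, 0 with the groups compared alone and 0 to 3 with 1 library left out (0 without libraries 1, 2, 4, 9 or 14). The interaction at 150 µg/d had 0 calls, 66 with array weights and 0 to 5 with 1 library left out (5 without library 19). The log2 fold change of Cyp2e1 ranged from -0.113 (without Gcg-/- library 5) to 0.183 with 1 library left out. That of Cyp2f2 was 0.0826 with quantile normalization and ranged from -0.288 to 0.0746 with 1 library left out, being above 0 without WT library 1 (0.0504) or Gcg-/- library 5. No called gene changed sign without a library. No paired analysis was possible because no replicate number is shared between groups. About 1 read in a transcript of 1 kb separates values 0.056 to 0.087 RPKM apart, which limits statements on genes near 0.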

Other observations

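The genes of this section were called but lie on none of the lists, and were chosen after their values were seen. Of the 179 called genes, 140 are on no list. Abat, the mitochondrial enzyme that breaks down GABA, fell from 100.4, 114 and 112 to 72.3, 70.2 and 64.2 RPKM (-0.65 ± 0.15, limma adjusted p = 0.0401), and Car5a, the mitochondrial carbonic anhydrase that supplies bicarbonate to urea synthesis, from 34.3, 46 and 47.3 to 19.4, 24.4 and 27.7 RPKM (-0.81 ± 0.18, adjusted p = 0.0332). Ldhd, which oxidises D-lactate, went from 75.6, 70.5 and 66.6 to 34.6, 46 and 45 RPKM (adjusted p = 0.0182), and Dpyd, the first step of pyrimidine breakdown, from 114, 138 and 134 to 70.2, 77.1 and 71.7 RPKM (adjusted p = 0.0428). Gatm, the first enzyme of creatine synthesis, rose from 3.21, 4.09 and 3.37 to 6.04, 6.74 and 4.64 RPKM (0.57 ± 0.13, adjusted p = 0.0301).

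Esam, an adhesion molecule, rose from 2.52, 2.91 and 2.69 to 4.97, 4.78 and 4.7 RPKM (0.65 ± 0.13, adjusted p = 0.0218), Icam2 from 1.9, 1.51 and 1.35 to 2.91, 2.92 and 2.77 RPKM (adjusted p = 0.0428) and the transcription factor Fli1 from 1.19, 1.18 and 1.08 to 1.77, 2.1 and 1.8 RPKM (adjusted p = 0.0499). Ucp2, an uncoupling protein of the inner mitochondrial membrane, rose from 14.8, 11.5 and 12.8 to 34.4, 31 and 26.7 RPKM (1.17 ± 0.29, adjusted p = 0.0452), and Cd14, a receptor for bacterial lipopolysaccharide, from 1.21, 0.776 and 0.55 to 2.82, 2.9 and 2.42 RPKM (adjusted p = 0.0296). None of the genes of this section was called without library 4.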
